A study of Mus musculus with 24 samples.

Results

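Mybph and the 4 other mouse genes of the myosin-binding protein family, Mybphl, Mybpc1, Mybpc2 and Mybpc3, were followed across 24 tibialis anterior muscles, a fast muscle of the lower hind limb. The 5 genes were chosen by symbol from the 19505 genes named on the array. Mybph itself was singled out because its level had been seen to differ between males and females in these same arrays, so its values are given as a description, with no test between groups. Each gene was measured by 1 probe set, a group of short probes to the same transcript.

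RNA came from the whole muscle of mice on a C57BL/6J background, kept without treatment. Mice were 4 to 5 months old, with no age stated for single arrays. There were 4 groups of 6 mice: Vps39+/- males, WT males, Vps39+/- females and WT females. In Vps39+/- mice, 1 germ-line copy of Vps39, whose product helps the HOPS tether join autophagosomes and late endosomes to lysosomes, carries a neomycin-EGFP cassette in exon 2. The change is therefore present in every tissue and not in muscle alone, and the other copy is intact. All values are log2 signals after Robust Multi-array Analysis (RMA), so a difference of 1 is a doubling, and the 24 arrays had medians between 5.55 and 5.64.

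Myosin-binding proteins sit along the thick filament of the sarcomere, where they bind the rod of myosin and titin, and members of the C type also reach the myosin heads and actin and tune how fast cross-bridges form. Mybpc1 encodes the slow skeletal protein, which is also made in fast fibres, Mybpc2 the fast skeletal protein and Mybpc3 the cardiac protein, whose human gene is a common site of mutations in hypertrophic cardiomyopathy. Mybph encodes the shorter protein H, found in fast skeletal muscle and in the conduction system of the heart, and Mybphl a related protein known from the atrium.

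The 250 bases before the start site of each gene were read from RefSeq on GRCm38.p6, where all 5 genes were matched. The windows of Mybph, Mybpc1 and Mybpc2 are shown because these 3 genes had a mean level of 5 or more in the muscle. Capitals mark matches to 4 motifs. The E-box, with the letters CANNTG, is bound by myogenic factors. The MCAT box, bound by TEAD factors, was searched on both strands as CATTCC, which reads from the other strand as GGAATG. The TATA motif was searched only on the strand of the gene, as TATAA. A half-site of the androgen and glucocorticoid receptors was searched on both strands as AGAACA, which reads from the other strand as TGTTCT.
Mybph: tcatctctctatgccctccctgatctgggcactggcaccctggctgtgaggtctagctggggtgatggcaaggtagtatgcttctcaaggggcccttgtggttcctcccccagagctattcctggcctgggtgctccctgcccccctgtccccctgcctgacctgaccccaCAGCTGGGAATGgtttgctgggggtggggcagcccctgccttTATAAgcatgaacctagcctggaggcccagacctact
Mybpc1: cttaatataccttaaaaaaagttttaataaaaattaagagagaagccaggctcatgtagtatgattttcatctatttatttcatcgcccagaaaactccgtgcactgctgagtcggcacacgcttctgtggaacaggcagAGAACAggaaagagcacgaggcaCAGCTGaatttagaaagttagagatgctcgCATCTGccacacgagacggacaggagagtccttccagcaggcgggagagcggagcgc
Mybpc2: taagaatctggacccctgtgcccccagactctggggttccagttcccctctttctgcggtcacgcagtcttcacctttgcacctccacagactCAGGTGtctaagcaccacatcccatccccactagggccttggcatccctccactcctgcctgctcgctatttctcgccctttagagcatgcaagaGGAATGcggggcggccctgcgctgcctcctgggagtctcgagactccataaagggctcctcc
The Mybph window is chr1:134193198-134193447 on the plus strand, that of Mybpc1 chr10:88605153-88605402 on the minus strand, and that of Mybpc2 chr7:44524670-44524919 on the minus strand. In Mybph an E-box began 79 bases before the start site and was followed directly, with no shared base, by GGAATG at 73 bases, and TATAA began at 37 bases. Mybpc1 held E-boxes at 87 and 57 bases and AGAACA at 110 bases, while Mybpc2 held an E-box at 157 bases and GGAATG at 62 bases. Of 32841 windows of the same length, 66.2% held an E-box, 12.6% the MCAT box, 16% TATAA and 16.1% the receptor half-site. These matches are letters in a window and no binding was measured.

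The sex labels could be checked on the arrays, and the genotype labels could not. The Y-linked genes Eif2s3y, Kdm5d and Uty did not overlap between the sexes in any array, with Eif2s3y between 7.71 and 8.45 in males and between 2.26 and 4.04 in females. The Vps39 probe set averaged 7.84 ± 0.32 in Vps39+/- males, 7.69 ± 0.40 in WT males, 7.84 ± 0.60 in Vps39+/- females and 7.31 ± 0.45 in WT females (SD, n = 6 each), and so was not lower with the disrupted allele. No source used here places its probes relative to exon 2, so it does not check the genotype labels. Muscle identity was clear: the 9 skeletal muscle markers averaged between 12.7 and 12.9 in every array, and the muscle creatine kinase Ckm lay between 12.7 and 13.0. The mean of 19 liver markers, which include albumin, ranged from 4.75 to 11.5 and was highest in WT female 2 (11.5), WT female 6 (10.4), Vps39+/- male 3 (9.97) and Vps39+/- male 2 (9.24).

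To see how the family is represented in this muscle, each gene was first read against the range of the array. Mybpc1, averaging 12.6 (12.3 to 12.8), and Mybpc2, averaging 11.5 (11.1 to 11.9), lay near the top of the scale in all 24 arrays. Mybphl, averaging 3.14 (2.53 to 3.75), and Mybpc3, averaging 3.90 (3.54 to 4.37), lay close to the 23 background control rows, whose means had a median of 3.46, a lowest of 1.67 and a highest above every male Mybph value. All Mybpc3 values lay above that median and the Mybphl values lay on both sides of it, and whether either gene exceeds background was not tested. At that end RMA shrinks differences, so comparisons of these 2 genes say little. Markers of the heart were low as well, with Myh6, the atrial and adult ventricular myosin of the mouse, at group means between 5.35 and 5.78 and the atrial peptide Nppa between 4.15 and 4.50. Mybph was the member with the widest spread, from 5.16 to 9.78 around a mean of 7.49, and its male values lay within the range of the background rows but above their median.

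**Figure D1:**
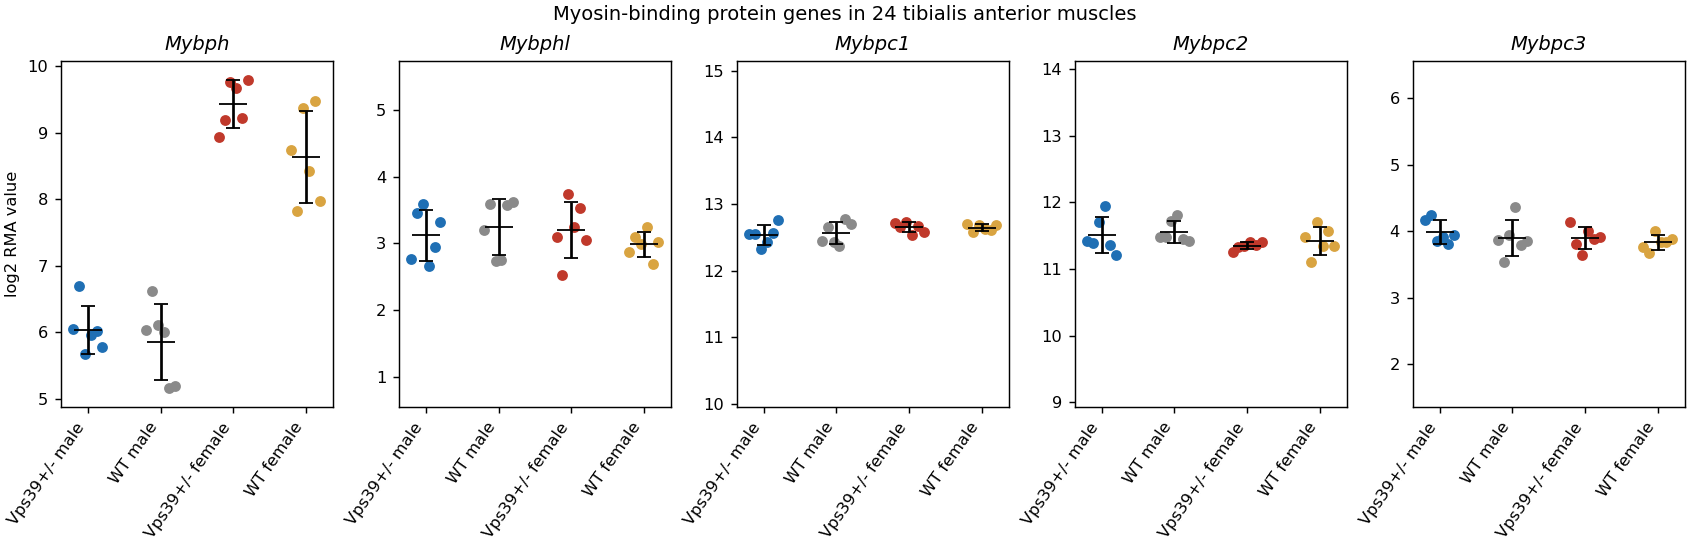
Log2 RMA value (vertical axis, same length of scale in each panel) of the 5 genes in 24 muscles, by group from left to right. Points are mice, the long bar is the group mean and the whiskers are 1 SD (n = 6). Mybph separates the sexes with a gap of 1.13 and the other 4 genes overlap between the sexes.

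Mybph was lower in males than in females in both genotypes, and no male reached the lowest female. In Vps39+/- males it ran from 5.67 through a median of 5.99 to 6.70, against 8.93, 9.44 and 9.78 in Vps39+/- females. WT males had 5.16, 6.02 and 6.62 as lowest, median and highest values, against 7.83, 8.59 and 9.48 in WT females. All 12 males lay at least 1.13 below all 12 females, and the order of group means was Vps39+/- female, WT female, Vps39+/- male, WT male. The upper pair overlapped with each other, as did the lower pair, and only the step between Vps39+/- males and WT females was free of overlap.

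Averaged over genotypes, Mybph was 5.94 ± 0.46 in males and 9.03 ± 0.67 in females (SD, n = 12 each), a difference of -3.09 (SE 0.20), or 8.51 times lower on the linear scale. The male values lay within the range of the background rows, so the fold is a ratio of signals and not of transcripts. In Vps39+/- mice the difference was -3.40 (SE 0.28) and in WT mice -2.78 (SE 0.28). By size it ranked 4 among 19572 probe sets, after the Y-linked Eif2s3y (5.36) and Uty (3.79) and Cyfip2 (-3.37), a subunit of the actin-regulating WAVE complex, and before the peptide transporter gene Slc15a5 (2.67). There were 15 probe sets (0.0766%) with all males below all females, and 56 (0.286%) free of overlap in either direction. Because this contrast led to the choice of Mybph, these figures describe it and test nothing.

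**Figure D2:**
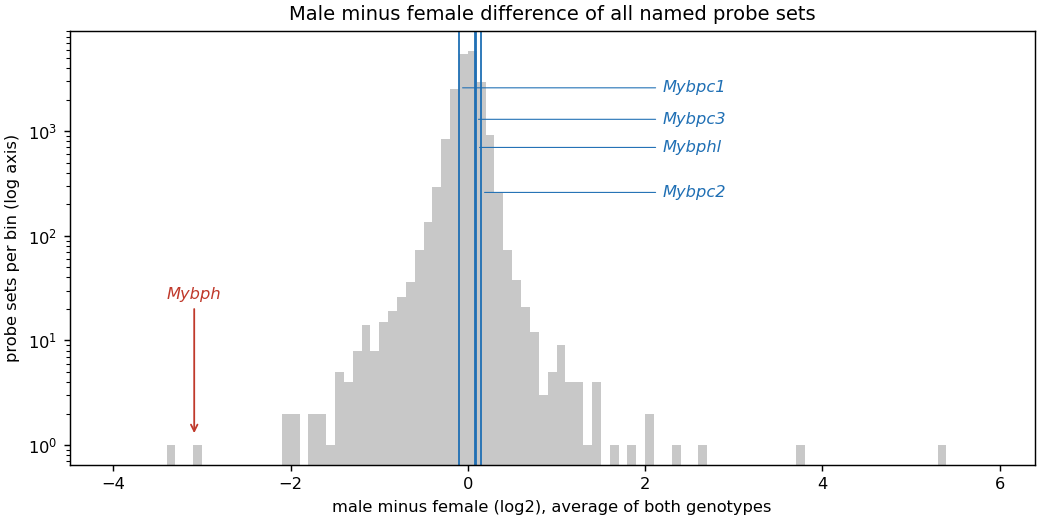
Number of probe sets (vertical log axis) by male minus female difference in log2 (horizontal axis, average of both genotypes) for 19572 named probe sets. The arrow marks Mybph at -3.09, far from the bulk, and the lines mark the other 4 family members between -0.10 and 0.15.

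The titles of the samples hold a running number that follows sex and genotype, so the order of the samples cannot be told apart from sex or, within a sex, from genotype. They also hold a second number, set before a point, that no source explains. Within that second number, where both sexes were present, Mybph was again lower in males, with differences of -2.92 for number 1 in Vps39+/- mice (2 males, 3 females), -1.96 for number 1 in WT mice (2 and 2), -3.77 for number 2 (1 and 2) and -3.83 for number 4 (1 and 1), both in Vps39+/- mice. Of the 19 liver markers, 19 had a negative difference over both genotypes, with a median of -1.01. By limma 0 of 19 passed, beside 3.38% of all probe sets, and 0 had an unadjusted p under 0.05, beside 15.6%. In WT mice 19 of 19 were lower in males, with a median of -2.35, and 0 passed. There, 16 of 19 had an unadjusted p under 0.05, beside 14.2% of all probe sets. In Vps39+/- mice 15 were higher in males and 4 lower, with a median of 0.20, and 0 had an unadjusted p under 0.05. Without the 4 arrays richest in these markers, the Mybph difference was -3.31.

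The other 4 members showed no such step. By limma, 0 of 4 passed an adjusted p of 0.05 for sex in both genotypes, where 3.38% of all probe sets did, and 0 of 4 had an unadjusted p under 0.05, where 15.6% of all did. The methods' t-test also called 0 of 4. In Vps39+/- mice alone 0 of 4 passed, against 0.766% of all probe sets, and in WT mice alone 0 of 4, against 1.32%.

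Mybpc1 had lowest, median and highest values of 12.32, 12.56 and 12.77 in Vps39+/- males and 12.37, 12.55 and 12.77 in WT males. In females it ran through 12.53, 12.66 and 12.73 in Vps39+/- mice and 12.58, 12.65 and 12.70 in WT mice. The sexes overlapped, with a wider spread among males (SD 0.15, against 0.060 in females, n = 12 each), and the difference was -0.10 (95% interval -0.21 to 0.01, limma adjusted p = 0.391). Mybpc2 ran through 11.20, 11.41 and 11.94 in Vps39+/- males and 11.41, 11.48 and 11.81 in WT males. Its female values were 11.25, 11.35 and 11.40 in Vps39+/- mice and 11.10, 11.41 and 11.71 in WT mice. The Mybpc2 difference was 0.15 (95% interval -0.02 to 0.31, limma adjusted p = 0.376). For both C-type genes of the fibres, a difference in signal beyond 0.31 in either direction was outside the interval. Both lie near the top of the scale, and how closely signal follows transcript there was not tested.

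The dim pair was flat within its spread. Mybphl averaged 3.19 ± 0.39 in males and 3.09 ± 0.33 in females (SD, n = 12 each), a difference of 0.09 (95% interval -0.20 to 0.38, limma adjusted p = 0.813). Mybpc3 averaged 3.94 ± 0.22 in males and 3.87 ± 0.14 in females, a difference of 0.08 (95% interval -0.08 to 0.24, limma adjusted p = 0.687). Both lie near background, where a difference may be shrunk.

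**Figure D3:**
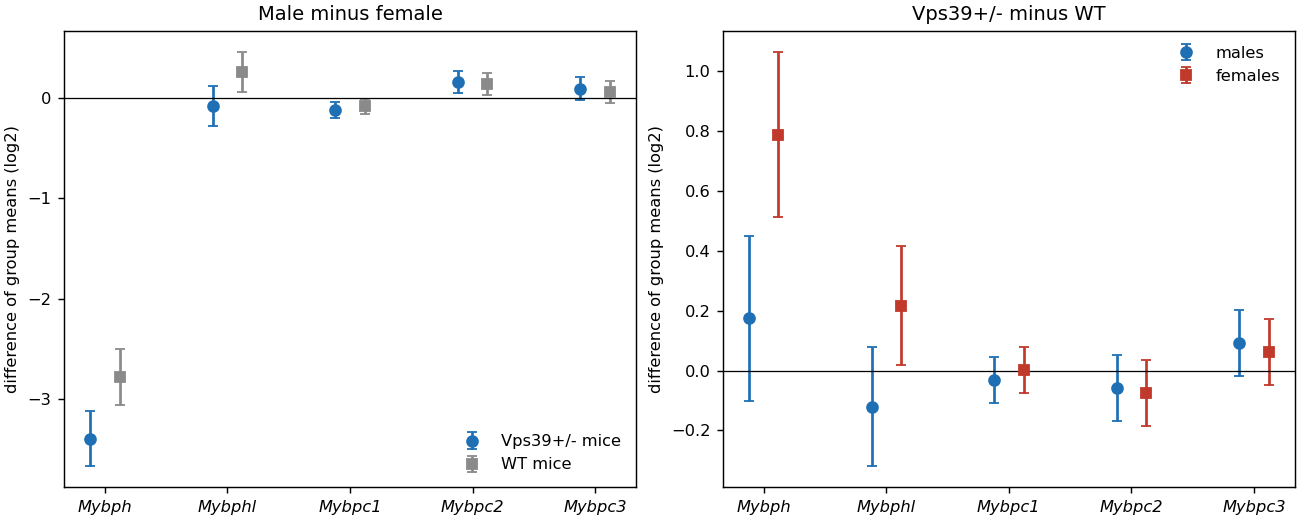
Differences of group means in log2 (vertical axis) for the 5 genes, male minus female on the left and Vps39+/- minus WT on the right, with whiskers of 1 SE from the limma fit of 4 groups of 6 mice. Mybph stands at -3.40 and -2.78 for sex and at 0.17 in males and 0.79 in females for genotype, and the other genes stay within 0.26 of 0.

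Next, the genotypes were compared, which was the question of the study. Mybph averaged 9.43 ± 0.36 in Vps39+/- females and 8.64 ± 0.69 in WT females (SD, n = 6 each), a difference of 0.79 (SE 0.28), and 6 of 6 Vps39+/- females lay above the WT mean. The groups overlapped, because WT female 5 (9.48) and WT female 3 (9.37) each lay above 3 of the 6 Vps39+/- females. Among males it averaged 6.03 ± 0.36 in Vps39+/- mice and 5.86 ± 0.57 in WT mice, a difference of 0.17 (SE 0.28), and the groups overlapped in part. Vps39+/- male 2 (6.70) lay above all WT males, and WT males 5 and 6 (5.16 and 5.20) lay below all Vps39+/- males. The genotype difference in males minus that in females was -0.61 (SE 0.39), and ran from -0.94 with title number as a fixed block to -0.32 without the 4 arrays richest in liver markers. None of these values was tested.

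The female difference was smaller without the WT arrays that were rich in liver and adipocyte transcripts. WT female 2 and WT female 6, the arrays with the highest liver means, had the lowest Mybph values of all females, 7.83 and 7.97. The same arrays had the highest adipocyte marker means of all females, 6.47 and 7.46, and the other 10 females lay between 4.71 and 5.51. WT female 4, with a liver mean of 5.05 and an adipocyte mean of 5.31, had 8.43. Not all liver-rich arrays were low in Mybph. WT female 3, with the highest liver mean of the females after WT females 2 and 6 (8.22) and an adipocyte mean of 4.92, had 9.37. Vps39+/- female 6, with a liver mean of 7.55, had 9.78, the highest Mybph value of all arrays. Leaving out the 4 arrays richest in liver markers brought the difference in females to 0.42, with the 6 Vps39+/- females at 9.43 ± 0.36 and the 4 remaining WT females at 9.00 ± 0.50. The part of either set of transcripts in the result was not tested. Within title number 1 the female difference was 1.01 (3 against 2 mice). In males it was 0.04 for number 1 (2 against 2), -0.38 for number 2 (1 against 2) and 0.78 for number 4 (1 against 2). Leaving out WT male 5 brought the male difference to 0.04 and leaving out WT male 2 to 0.33.

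For the other members, limma called 0 of 4 for genotype in both sexes, in females, in males and for the interaction, where it also called 0% of the 19572 probe sets. At an unadjusted p under 0.05 it had 0 of 4 in each, beside 7.99%, 8.32%, 7% and 7.79% of all probe sets, and the methods' t-test called 0 of 4 wherever it could be run. Over both sexes Mybpc1 differed by -0.02 (95% interval -0.13 to 0.10, adjusted p = 0.971) and Mybpc2 by -0.07 (95% interval -0.23 to 0.10, adjusted p = 0.878). Mybpc3, which lies on the same chromosome as Vps39, differed by 0.08 (95% interval -0.08 to 0.24, adjusted p = 0.849), and Mybphl by 0.05 (95% interval -0.24 to 0.34, adjusted p = 0.960). Mybphl in females averaged 3.20 ± 0.42 in Vps39+/- and 2.99 ± 0.19 in WT mice (SD, n = 6 each), a difference of 0.22 with adjusted p = 0.792.

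In whole muscle, fewer cells or fibres of a type and less RNA in each cannot be told apart, so the sarcomere genes around the family were laid beside it, as lists of known members. Of 14 partners in the thick filament and M-band, limma called 1 for sex, Obsl1, a titin-linked protein of the obscurin family, which averaged 6.03 ± 0.20 in males and 6.41 ± 0.26 in females (SD, n = 12 each; difference -0.38, adjusted p = 0.0174). Over all probe sets, 3.38% passed for sex. At an unadjusted p under 0.05 there were 5 of 14 partners, beside 15.6% of all probe sets. The median of these partners was -0.02, beside 0.005 for all probe sets. Of 13 fast-fibre sarcomere genes limma and the methods' t-test called 0, with 1 at an unadjusted p under 0.05, and the median was 0.01. That gene was Myh2, the 2A myosin, at 12.4 ± 0.55 in males and 12.9 ± 0.29 in females (difference -0.48, adjusted p = 0.138).

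Slow-fibre genes included members that were lower in males. Of 12 measured, limma called 2, both lower, beside 3.38% of all probe sets. At an unadjusted p under 0.05 there were 3 of 12, beside 15.6%. A negative difference was seen in 12 of 12, and their median was -0.21, beside 0.005 for all probe sets. Myl2, the slow and ventricular regulatory light chain, averaged 5.01 ± 0.69 in males and 6.79 ± 1.09 in females (difference -1.78, adjusted p = 0.00211). Myl3, the slow and ventricular essential light chain, averaged 8.04 ± 0.46 in males and 8.76 ± 0.25 in females (difference -0.72, adjusted p = 0.00446). Both overlapped between the sexes, which Mybph did not.

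Among 15 developmental and denervation-responsive genes, limma called 1 in each direction for sex, beside 3.38% of all probe sets. At an unadjusted p under 0.05 there were 3 of 15, beside 15.6%, and the median was -0.008. Musk, the kinase that organises the neuromuscular junction, rose to 7.84 ± 0.34 in males, against 7.05 ± 0.31 in females (SD, n = 12 each; difference 0.79, adjusted p = 6.6e-04). Actc1, the cardiac alpha-actin that is also made in developing skeletal muscle, fell to 8.74 ± 0.28 in males, against 9.35 ± 0.47 in females (difference -0.61, adjusted p = 0.00152). By limma this Actc1 difference was -0.99 in Vps39+/- mice (adjusted p = 6.6e-04) and -0.22 in WT mice (adjusted p = 0.557). Its highest group was the same as that of Mybph: Actc1 averaged 9.73 ± 0.08 in Vps39+/- females, with its lowest value at 9.65, and 8.97 ± 0.36 in WT females, with its highest at 9.44. That genotype difference of 0.77 did not pass (limma adjusted p = 0.214). For genotype over both sexes, limma called 0 genes in each of these 4 lists, as did the methods' t-test. Over all probe sets limma called 0%. At an unadjusted p under 0.05 there were 2 of 15 developmental and denervation-responsive genes, Actc1 and the acetylcholine receptor gene Chrnd. There were 0 of 14 thick filament and M-band partners, 0 of 13 fast-fibre genes and 0 of 12 slow-fibre genes, beside 7.99% of all probe sets.

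**Figure D4:**
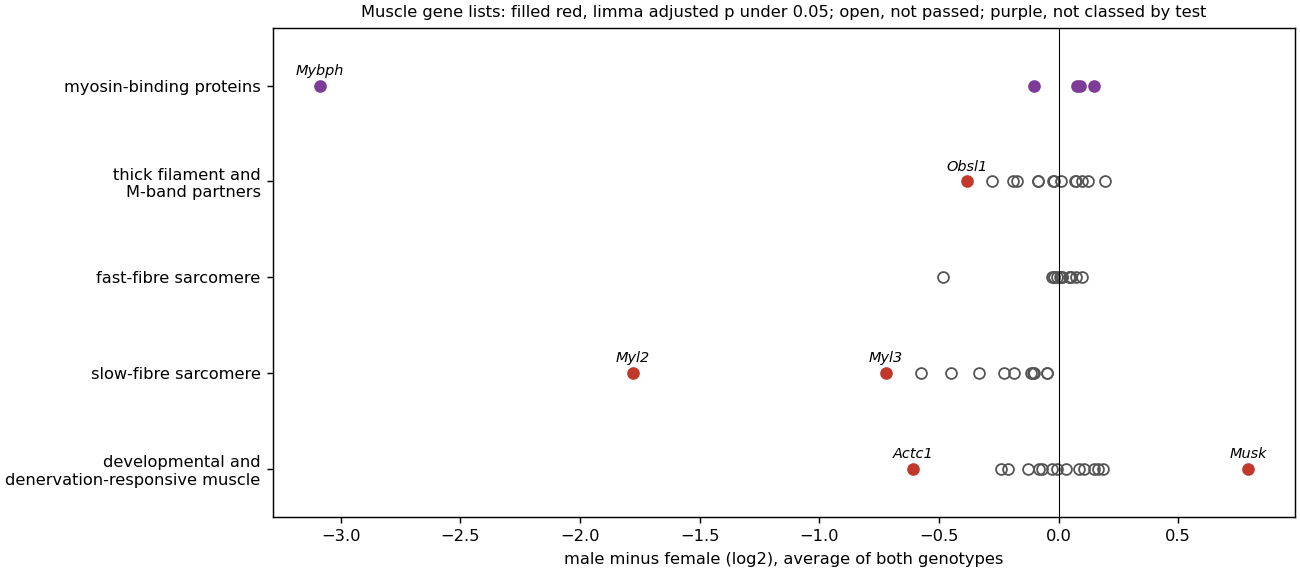
Male minus female difference in log2 (horizontal axis, average of both genotypes) of each gene of 5 lists (rows). Filled red points passed a limma adjusted p of 0.05, open points did not, and purple points are the myosin-binding protein genes. Mybph at -3.09 lies beyond Myl2 at -1.78, the next lowest of the genes drawn.

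Finally, the variation that sex and genotype leave was examined by subtracting each group's mean and correlating genes over the 24 arrays. These r values are descriptions, since the arrays share their preparation and a few arrays rich in liver transcripts. With a mean of at least 5 required, the probe sets most like Mybph were Ptpn4, a tyrosine phosphatase (r = 0.80), the growth factor gene Pdgfb (0.80), Smyd1, a muscle methyltransferase that takes part in myosin assembly (0.77), the nuclear envelope phosphatase gene Ctdnep1 (0.75) and the chromatin regulator Ankrd11 (0.74). At the opposite end stood Fmo2, a flavin monooxygenase (-0.76), Entpd5, an endoplasmic reticulum nucleotidase (-0.74), and Per2, a repressor of the circadian clock (-0.74). Without the 4 arrays richest in liver markers, the r with Smyd1 was 0.65 and that with Per2 was -0.65.

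Per2 also split the sexes, in the direction opposite to Mybph. It averaged 6.70 ± 0.16 in males and 5.52 ± 0.27 in females (SD, n = 12 each), with no overlap, a difference of 1.18 (limma adjusted p = 1.9e-09). Smyd1 did not, at 10.43 ± 0.07 in males and 10.52 ± 0.10 in females (SD, n = 12 each; difference -0.09, adjusted p = 0.355). No source used here gives the hours at which the muscles were taken, and their part in the Mybph values was not tested. Of the marker lists, the adipocyte mean had the strongest r with Mybph within groups (-0.60), beside -0.32 for the liver mean and 0.48 for the skeletal muscle mean.

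**Figure D5:**
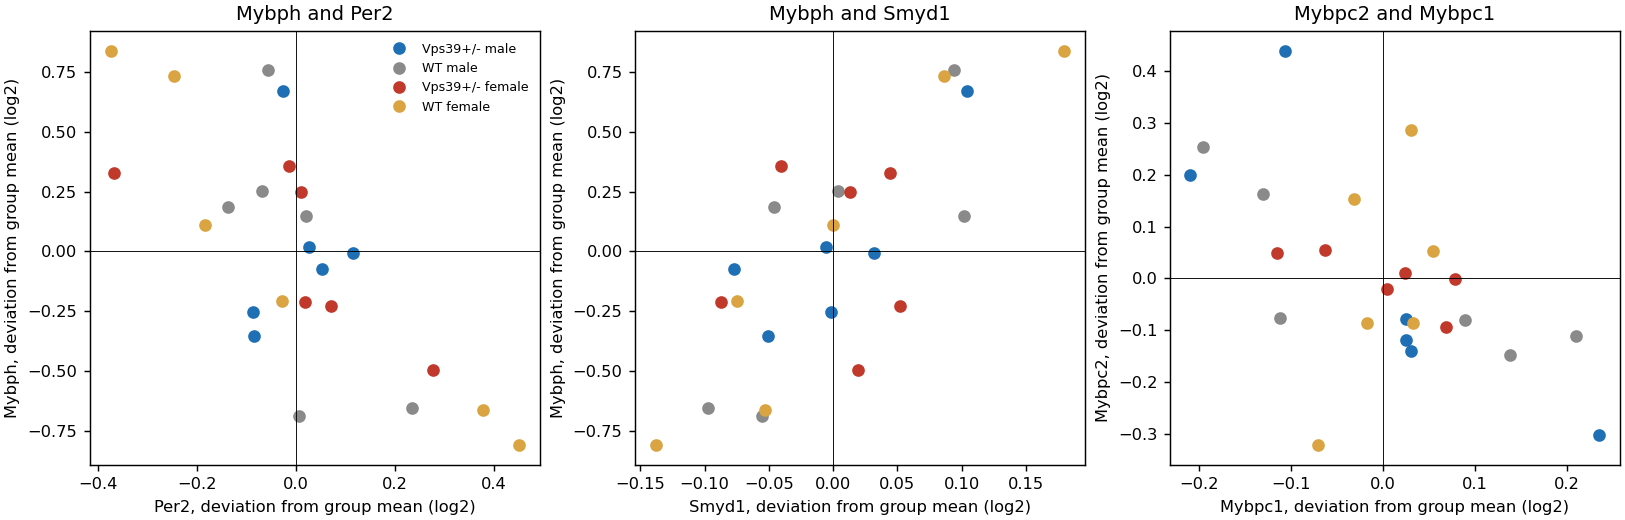
Deviation of each array from its group mean in log2, for Mybph against Per2 (left), Mybph against Smyd1 (middle) and Mybpc2 against Mybpc1 (right). Each point is 1 of 24 arrays, coloured by group. Over the 24 arrays together, Mybph falls along Per2 (r = -0.74) and climbs along Smyd1 (r = 0.77), and Mybpc2 falls along Mybpc1 (r = -0.58). The fall along Per2 is not seen within Vps39+/- males, where male 3 has the lowest Mybph deviation (-0.36) and a Per2 deviation of -0.08. The climb along Smyd1 is not seen within Vps39+/- females, where female 6 has the highest Mybph deviation (0.36) and a Smyd1 deviation of -0.04. The fall of Mybpc2 along Mybpc1 is not seen within WT females, where female 2 has the lowest deviation of both (-0.32 and -0.07).

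With group means subtracted and the 24 arrays pooled, the slow and fast C-type genes ran against each other, but not within WT females. There, WT female 2 had the lowest value of both genes (deviations of -0.07 for Mybpc1 and -0.32 for Mybpc2). WT female 3 lay above the group mean in both (0.03 and 0.28). Mybpc1 and Mybpc2 had r = -0.58 over 24 arrays, and -0.69 without the 4 arrays richest in liver markers. Mybpc2 had r = -0.80 with the mean of the 12 slow-fibre genes and 0.37 with that of the 13 fast-fibre genes, whereas Mybpc1 had r = 0.61 with the slow-fibre mean and -0.09 with the fast-fibre mean. Other lists were as strong: Mybpc2 had r = -0.78 with nerve and Schwann cell markers and 0.76 with skeletal muscle markers, and Mybpc1 had r = 0.61 with cardiac markers. Mybph had r = 0.42 with Mybpc2 and -0.19 with Mybpc1. The genes most like Mybpc2 were Ppp3ca, the catalytic subunit of calcineurin (0.94), the lipid enzyme gene Tecr (0.92) and Bin1, which shapes the transverse tubules (0.92). Those most like Mybpc1 were Casq2, the calsequestrin of heart and slow fibres, Lrrn1 and Oxnad1 (0.81 each). For the dim pair, Chrna9 (0.69), Cat (0.68) and Lrrc1 (0.67) were nearest to Mybphl, and 7530416G11Rik (0.79), Flrt1 (0.72) and Fam98c (0.70) to Mybpc3.

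Neighbours of Mybph on chromosome 1 were looked at after its values were seen. Of the 8 nearest named genes, 4 on either side, 0 passed for sex by limma, beside 3.38% of all probe sets. At an unadjusted p under 0.05 there were 0, beside 15.6%. The 8 genes are too few to set these counts apart from those shares. Fmod, which encodes fibromodulin, differed by -0.64 (adjusted p = 0.619), and Myog, the myogenic factor gene myogenin, by -0.21 (adjusted p = 0.356). Chil1, Chit1 and Btg2 differed by 0.05, 0.03 and 0.003.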

How the data were processed

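Gene expression was measured in 24 whole tibialis anterior muscles on Clariom S mouse arrays. Per the labels, the authors ran Expression Console 1.4.1.46 with RMA and deposited log2 values. RMA subtracts background, gives arrays a common distribution and summarises probes, so it shrinks differences of dim genes and removes a change shared by most genes. No source used here gives the genome build. Of 28846 rows, 6640 were controls and 2634 had no symbol, and the 19572 others (19505 symbols, all matched by Entrez identifier to a RefSeq table of GRCm38.p6) were tested.

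Group means were fitted with limma 3.58.1 (statmod 1.5.0) in R 4.3.3 over all 24 arrays with no covariate, with two-sided p-values adjusted by Benjamini-Hochberg across these 19572 and called at 0.05. The script was tested on simulated data. Replicates were numbered in accession order and pair no mice, and p-values measure the spread between these mice. Arrays have no read depth, and their number limits the precision.

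The members and the gene lists were chosen with earlier results of these data known. Named genes were all 5 members, the 5 highest and 3 lowest r with Mybph and the 3 highest with each other member at a mean of 5 or more, list genes past the threshold (at most 4 per contrast, otherwise up to 2 by smallest p) and tissue markers. Alternatives were other scalings, filters, priors, covariates, array weights, blocks by title number, the methods' t-test, fits of only the groups compared, leaving out each array, and leaving out the 4 arrays with the highest liver-marker mean.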

Additional observations from a re-analysis of the deposited data

Results flagged for a closer look

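Mybph in Vps39+/- male 2 stood apart from its group. It was 6.70 there, while the other 5 Vps39+/- males lay between 5.67 and 6.05, so that its gap to the nearest was 0.637 of the range of the group, above Dixon's critical value at 95% for 6 samples. The same array had a liver-marker mean of 9.24, among the 4 highest. Over the 5 genes and 4 groups, 20 groups were looked at in this way, and chance marks about 1 in 20. Without this array the sex difference of Mybph in Vps39+/- mice was -3.53.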

How the results depend on the processing

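The count of family members past the threshold, which leaves Mybph aside, was 0 in all 7 contrasts under every alternative that gave a count and on leaving out each array. With only probe sets of mean 5 or more, Mybpc1 and Mybpc2 alone remained. The lowest adjusted p for sex in both genotypes over the alternatives was 0.162 for Mybpc1 and 0.281 for Mybpc2. Over the same alternatives the Mybph difference between males and females ran from -3.31 to -2.95, and on leaving out each array from -3.17 to -3.00. Its genotype difference in females ran from 0.42 without the 4 arrays richest in liver markers to 1.02 with title number as a fixed block, and from 0.63 to 0.96 on leaving out each array. Its interaction ran from -0.94 to -0.32 over the alternatives.

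Differences near 0 changed sign, none of them past the threshold, and the cause was not tested. For Mybpc1 by genotype in females, the value was -0.000124 with arrays shifted to a shared median, -0.011 with cyclic loess, -0.0089 with array weights, -0.0051 with the liver mean as a covariate, -0.0078 without the 4 arrays and -0.000116 with title number as a random block. The Mybpc2 interaction became -0.011 with the median shift. Without the 4 arrays, genotype in both sexes became -0.033 for Mybphl and 0.0032 for Mybpc1, and Mybpc1 became 0.014 in males and 0.022 for the interaction. With the fixed block, Mybpc1 became 0.0084 for genotype in both sexes and 0.021 for sex in WT mice, and Mybpc2 became 0.030 for genotype in males. On leaving out each array, Mybpc1 ran from -0.080 to 0.0087 (interaction), -0.039 to 0.0059 (genotype, both sexes), -0.014 to 0.025 (females) and -0.079 to 0.010 (males). Mybpc2 ran from -0.070 to 0.082 (interaction) and -0.145 to 0.0028 (genotype in males), Mybpc3 from -0.040 to 0.126 (interaction) and -0.032 to 0.134 (sex in WT mice), and Mybphl from -0.0066 to 0.115 (genotype, both sexes) and -0.213 to 0.031 (sex in Vps39+/- mice).

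The genes most like each member changed more. Of the 5 most like Mybph, 0 were shared when group means were not subtracted, 3 with Spearman's rho and 0 without the 4 arrays. Of 3 each, Mybphl shared 1, 1 and 0, Mybpc1 1, 1 and 1, and Mybpc2 1 and 0 (first and last of these settings), and Mybpc3 shared 1 with Spearman's rho. The count of thick filament partners called for sex was 2 in place of 1 with the mean filter, the intensity trend, a principal component covariate and the methods' t-test.

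No paired analysis was possible because the labels give no replicate number. The title number before the point, shared by some mice of several groups, was used as a block as above, and its consensus correlation was -0.0069. Another probe set per gene could not be tried, since each gene had 1, and the methods' t-test and the fits of only the groups compared give no interaction. Signal near background limits Mybphl and Mybpc3.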

Other observations

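When group means were not subtracted, the genes that ran most closely with Mybph over the 24 arrays were the elongation factor gene Eef1b2 (r = 0.95), the X-linked demethylase gene Kdm5c (0.92), Mettl21e, a muscle methyltransferase gene (0.89), the glutathione transferase gene Gstm2 (0.88) and Cyfip2 (0.88). Their differences between males and females were -0.29, -0.75, -1.14, -0.75 and -3.37, which their likeness to Mybph across the sexes fixes in direction, so they were not tested. Running opposite to Mybph were Per2 (-0.96), the Y-linked Eif2s3y (-0.95) and Serinc3 (-0.93). Within groups Cyfip2 had r = -0.19 with Mybph, against 0.88 with group means kept in.

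Among the other cell types measured, the complement gene C1qa, a macrophage marker, was lower in males (difference -0.42, limma adjusted p = 0.0427), and it was the only one of the 4 macrophage markers called for sex. Of the cardiac markers, limma called 0 of 11 for sex, where 3.38% of all probe sets passed. At an unadjusted p under 0.05 there were 0, beside 15.6%, with a median difference of -0.002 between males and females.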
